A study of Mus musculus with 16 samples.

Results

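The effect of Atg7 deletion was examined in lumbar spinal cord of mice carrying the SOD1G93A transgene, by comparing the 4 libraries of conditional knockout animals with the transgene (cKO_SOD1) with the 4 libraries of animals with intact Atg7 and the same transgene (cWT_SOD1). These 8 libraries of the 16 in the series were chosen by their titles, and all expressed genes were described, 15426 of 23284 gene symbols having passed a filter on low counts. The other 8 libraries, from mice without the transgene with Atg7 intact (cWT) or deleted (cKO), served as background. All mice were 150 days old, each library was 1 animal, and the groups of 4 are given as biological replicates. RNA-seq was done on poly-A RNA of the whole lumbar cord. Both groups compared here carry SOD1G93A, a mutant form of human SOD1 that causes motor neuron disease in mice. By the labels they differ in Atg7 genotype, and whether they differ in anything else was not tested. The labels do not name the Cre line. The series title places the block of autophagy in motor neurons, which are a small minority of the cells in the cord, so the RNA measured comes mostly from cells outside the named target.

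Atg7 encodes the E1-like enzyme that starts the conjugation of the LC3 and GABARAP proteins to lipid and of Atg12 to Atg5, and autophagosomes do not form normally without it. In SOD1G93A mice motor neurons lose their contacts with muscle and die, while microglia (the resident macrophages of the cord) and astrocytes (the glia that clear transmitter and support synapses) switch to reactive gene programmes. Microglia in this state pass through a Trem2-dependent change to the disease-associated form, with high Apoe, Itgax, Cst7 and Gpnmb. Astrocytes in this state raise Gfap, Vim and Serpina3n.

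Library totals in the 8 transgenic libraries ran from 14989026 to 20892530 counts, with 17612 to 17939 symbols detected, and each group held 2 males and 2 females. Levels are given as CPM, counts scaled to a common library total after correction for library composition. Atg7 (chromosome 6, 114593000 to 114810632 in mm9) was at 30.3, 23.1, 22.1 and 20.8 CPM in the 4 cWT_SOD1 libraries and 29.4, 20.4, 29.3 and 29.6 CPM in the 4 cKO_SOD1 libraries. The groups overlapped, and the difference did not pass the test (log2 fold change 0.17, SE 0.12, adjusted p = 0.220). It passed, as higher in cKO_SOD1, without cWT_SOD1 replicate 1 (log2 fold change 0.30, adjusted p = 0.0212), without cKO_SOD1 replicate 2 (0.29, adjusted p = 0.0211) and in females alone (0.42, adjusted p = 0.00344). Whole-cord counts of Atg7 therefore did not check the genotype labels. Mouse Sod1 (chromosome 16, 90221000 to 90226569) was at 112, 106, 112 and 126 CPM in the 4 cWT_SOD1 libraries and 112, 102, 101 and 110.0 CPM in the 4 cKO_SOD1 libraries (log2 fold change −0.10, SE 0.061, adjusted p = 0.182). The human transgene transcript was not analysed here.

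The first principal component of log2 CPM over the 8 libraries held 71.2% of the variance and separated the genotypes. The cKO_SOD1 libraries lay close together on it, from −40.2 to −37.1, whereas the cWT_SOD1 libraries ran from 16.6 to 55.3, with replicate 1 nearest to cKO_SOD1. Without that library 9335 genes were called in place of the 8984 given below, 4580 higher and 4755 lower. When all 16 libraries were analysed together, the first component (71.4%) placed cKO_SOD1 between the other groups, at −3.58 to 0.406, with cWT at −39.6 to −34.7, cKO at −39.7 to −28.4 and cWT_SOD1 at 53.1 to 87.5. The median SD of log2 CPM within a group was 0.152 in cWT_SOD1 and 0.0984 in cKO_SOD1.

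In the comparison of cKO_SOD1 with cWT_SOD1, 8984 of 15426 genes (58.2%) were called, meaning an adjusted p under 0.05 in edgeR's quasi-likelihood test. Of these, 4488 (29.1%) were higher and 4496 (29.1%) lower in cKO_SOD1. The 2 directions differed in size. More than 2-fold, 1191 genes (7.72%) were lower and 278 (1.80%) higher. The 2 groups of 4 libraries did not overlap at all for 7570 genes (49.1%). With so many genes called, the counts for each gene list below are read against 29.1% in each direction.

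**Figure D1:**
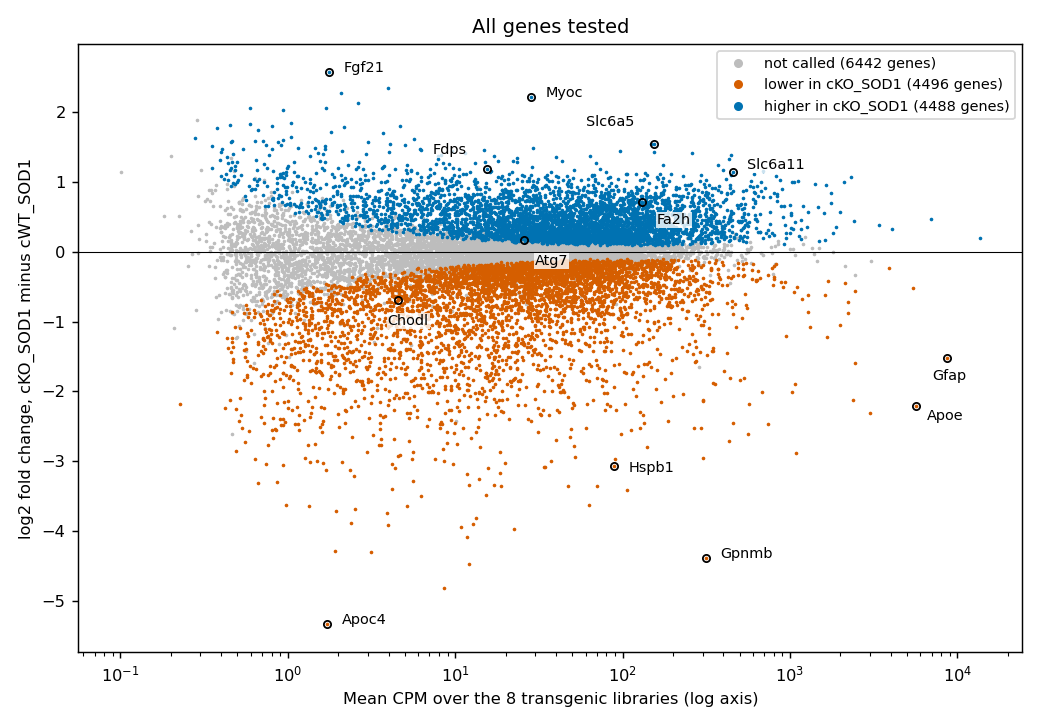
Each point is 1 of 15426 genes, by mean CPM over the 8 transgenic libraries (log axis) and log2 fold change of cKO_SOD1 against cWT_SOD1. The points reach further down than up, with 1191 genes more than 2-fold lower and 278 more than 2-fold higher, and Fgf21 is the highest labelled point and Apoc4 the lowest.

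The 12 genes furthest lower, counting those called, at 1 CPM or more on average and without overlap of the groups, were Apoc4, Atp6v0d2, Igfbpl1, Gpnmb, Tnfsf11, Mcoln3, Slc43a3, Wisp2, Serpina3i, Crym, Apoc2 and Ppl. Gpnmb (chromosome 6, 48986500 to 49008181), a transmembrane glycoprotein of lipid-laden macrophages and microglia, was at 222, 837, 774 and 563 CPM in the 4 cWT_SOD1 libraries and 28.2, 32.8, 30.6 and 23.3 CPM in the 4 cKO_SOD1 libraries. Every cKO_SOD1 library was below the lowest cWT_SOD1 library, as the rule required, and the cKO_SOD1 mean was 20.9-fold lower (log2 fold change −4.38, SE 0.34, adjusted p = 2.79e-08). The level in cKO_SOD1 was still above that without the transgene, where cWT was at 3.80 ± 1.29 and cKO at 5.84 ± 2.40 CPM (mean ± SD, n = 4). Atp6v0d2, which encodes a proton pump subunit of osteoclasts and phagocytes, was at 5.41, 23.03, 21.2 and 16.6 CPM in the 4 cWT_SOD1 libraries and 0.644, 1.15, 0.373 and 0.199 CPM in the 4 cKO_SOD1 libraries (28.2-fold lower). Apoc4, a lipoprotein component, rested on 6 counts in cKO_SOD1 against 233 in cWT_SOD1, a ratio of 45.1 whose 95% interval from counting error alone ran from 20.4 to 124.3. Apoc2, its neighbour in function and the activator of lipoprotein lipase, was 14.9-fold lower. Igfbpl1 and Wisp2, both secreted factors, were 22.1-fold and 15.4-fold lower. Mcoln3, an endolysosomal cation channel, was 19.5-fold lower, and Tnfsf11, which encodes the osteoclast cytokine RANKL, was 19.7-fold lower. Slc43a3, Crym and Ppl, which encode a purine transporter, a thyroid hormone-binding protein and periplakin, were 15.7-fold, 14.997-fold and 14.1-fold lower. Serpina3i was 15.1-fold lower, and near-identical Serpina3 genes can share its reads. Without cKO_SOD1 replicate 1 its log2 fold change was −4.87 in place of −3.92.

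The genes furthest higher by the same rule included Fgf21, Myoc, Frem3, Fbxo40, Pou4f2, A930006I01Rik, En1, Lgr6, Dmrt3, Heyl and Chrna2. Their folds were smaller, from 2.98 to 6.002. Fgf21 (chromosome 7, 52869300 to 52870860), a stress-induced hormone of the fibroblast growth factor family, was at 0.800, 0.335, 0.340 and 0.530 CPM in the 4 cWT_SOD1 libraries and 3.28, 2.67, 2.61 and 3.48 CPM in the 4 cKO_SOD1 libraries (log2 fold change 2.59, SE 0.25, adjusted p = 2.34e-07). All 4 cKO_SOD1 libraries were above all cWT_SOD1 libraries, as the rule required of every gene named by it. Myoc, which encodes the secreted protein myocilin, was at 14.2, 8.72, 4.53 and 13.1 CPM in the 4 cWT_SOD1 libraries and 49.1, 38.1, 54.3 and 45.3 CPM in the 4 cKO_SOD1 libraries, again without overlap (4.65-fold higher). En1, Dmrt3 and Pou4f2 encode homeobox, doublesex-type and POU transcription factors of neuronal subtypes, and Chrna2 encodes a nicotinic receptor subunit of Renshaw cells, the inhibitory interneurons that motor neurons excite. Fbxo40 rested on low counts, and without cWT_SOD1 replicate 1 its log2 fold change was 2.68 in place of 2.06.

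Genes with the smallest p were not those with the largest folds. Dhrs1, a short-chain dehydrogenase, had the smallest, at 497, 570.2, 560.4 and 611 CPM in the 4 cWT_SOD1 libraries and 137, 152, 160.2 and 154 CPM in the 4 cKO_SOD1 libraries (log2 fold change −1.89, SE 0.068, adjusted p = 2.10e-11). The scramblase gene Plscr2 was at 37.4, 38.5, 41.9 and 35.0 CPM in the 4 cWT_SOD1 libraries and 11.1, 11.0, 10.9 and 9.95 CPM in the 4 cKO_SOD1 libraries, 3.56-fold lower, with a spread within each group far below the gap between them. S100a10, Add3, Cd34, Nek6, Hmox1 and Tgm1 followed, at 2.93-fold, 1.89-fold, 4.93-fold, 2.33-fold, 6.47-fold and 10.2-fold lower. Among genes higher in cKO_SOD1, the smallest p values belonged to the astrocyte transporters Slc6a11 and Slc7a10, followed by Mtus2, the neuronal pentraxin Nptx1, 2310022B05Rik, the melanoma antigen family gene Tro, the potassium channel Kcnj3 and the adaptor Grb10, all between 1.501-fold and 2.20-fold higher.

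**Figure D2:**
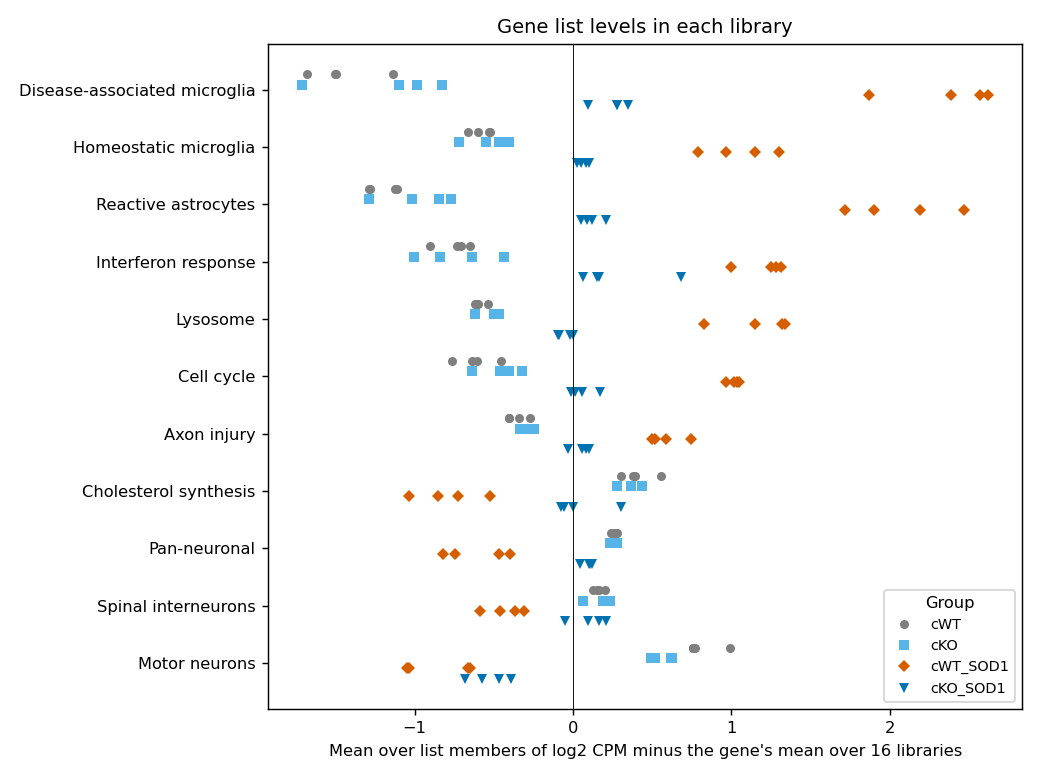
Each symbol is 1 of the 16 libraries, by the mean over a list's tested members of log2 CPM minus the gene's mean over all libraries. For both microglial lists and reactive astrocytes the cKO_SOD1 libraries lie between the non-transgenic groups and cWT_SOD1, whereas for motor neurons cKO_SOD1 (−0.68 to −0.39) lies near cWT_SOD1 (−1.05 to −0.65) and overlaps it.

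Microglial genes were lower in cKO_SOD1. Of 16 markers of homeostatic microglia tested, 13 were lower and 1 higher, with a median log2 fold change of −1.31 against −0.0087 over all genes tested. The fractalkine receptor Cx3cr1 was at 208, 246, 265 and 204 CPM in the 4 cWT_SOD1 libraries and 87.4, 80.8, 94.1 and 90.4 CPM in the 4 cKO_SOD1 libraries (2.62-fold lower). The colony-stimulating factor receptor Csf1r was 2.61-fold lower. Purinergic receptor P2ry12 and Tmem119, 2 genes used to tell microglia from blood-derived macrophages, were 1.28-fold and 1.86-fold lower. The member that was higher was the fructose transporter Slc2a5, at 1.72, 2.57, 0.963 and 0.729 CPM in the 4 cWT_SOD1 libraries and 1.76, 3.09, 3.96 and 3.23 CPM in the 4 cKO_SOD1 libraries, and the groups overlapped (adjusted p = 0.0141, or 0.0505 without cWT_SOD1 replicate 3 and 0.0527 without cKO_SOD1 replicate 3). In RNA of whole tissue, fewer cells of a type and less RNA per cell cannot be told apart.

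Of 35 markers of disease-associated microglia 34 were lower and none higher, with a median of 4.55-fold lower. More than 2-fold lower were 30 of them. The integrin gene Itgax was at 83.2, 163, 151 and 112 CPM in the 4 cWT_SOD1 libraries and 13.6, 16.8, 11.1 and 8.30 CPM in the 4 cKO_SOD1 libraries (10.3-fold lower), and the cystatin Cst7 at 80.1, 145, 145 and 97.3 CPM in the 4 cWT_SOD1 libraries and 11.8, 9.64, 9.69 and 6.76 CPM in the 4 cKO_SOD1 libraries (12.4-fold lower). Trem2, the lipid receptor on which the state depends, was 5.90-fold lower (192 ± 52.0 against 32.6 ± 1.37 CPM), and its adaptor Tyrobp 5.78-fold. Apoe, the main lipid carrier of the brain, fell from 9257 ± 3375 to 2011 ± 114 CPM and was among the genes with the largest difference in CPM. For Trem2 and Apoe the cKO_SOD1 libraries did not overlap with cWT_SOD1. Spp1 (osteopontin), the pattern receptor Clec7a, the tetraspanins Cd9 and Cd63, and the receptor kinase Axl were 6.09-fold, 7.82-fold, 2.99-fold, 3.33-fold and 2.68-fold lower. For Spp1 the cKO_SOD1 mean of 159 CPM stood beside 165 in cWT and 157 in cKO, while Clec7a at 20.4 CPM stood above 1.57 and 2.58.

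**Figure D3:**
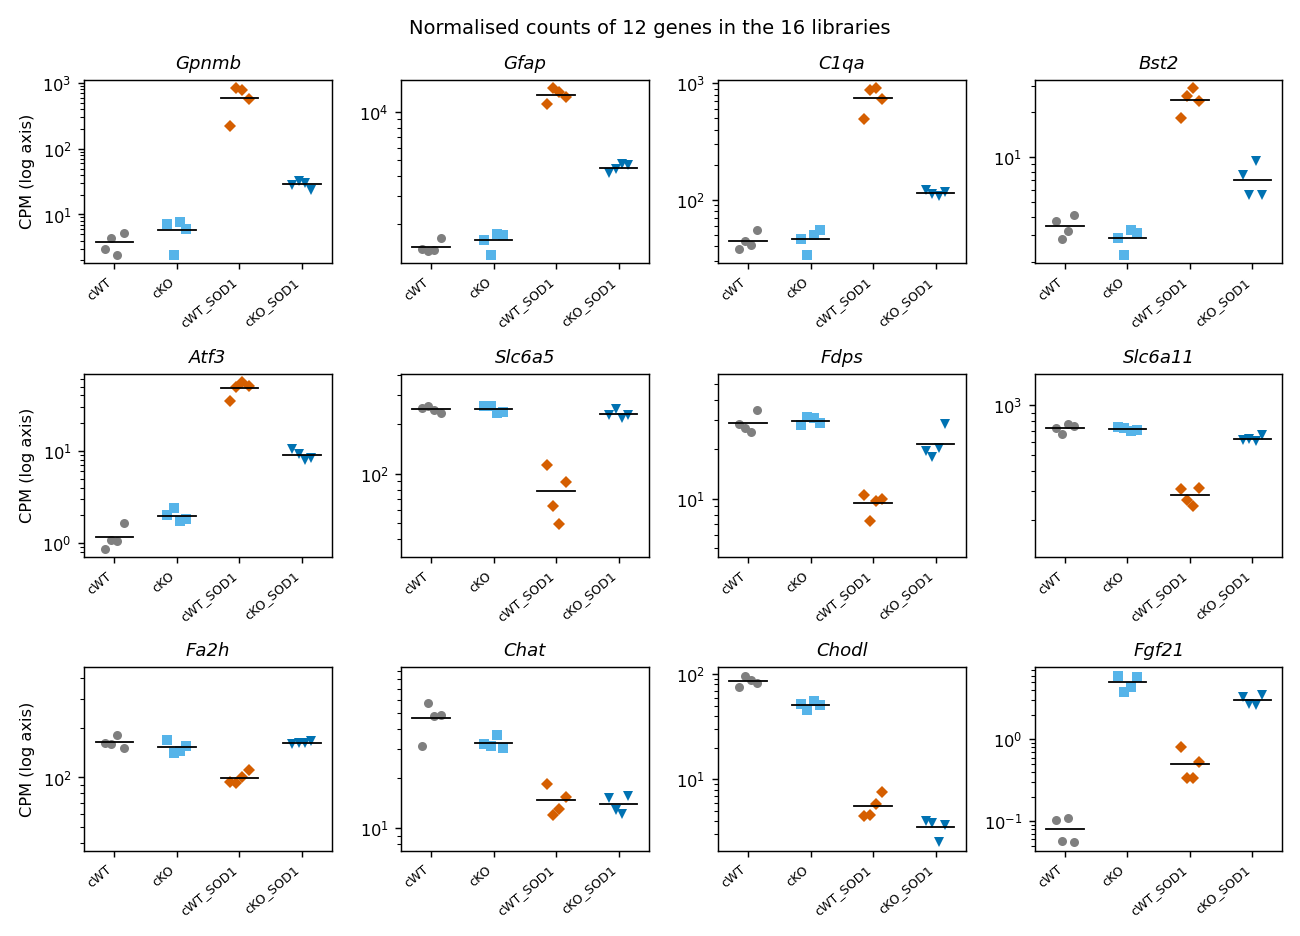
Points are the CPM of 12 genes in each of the 16 libraries on log axes, and bars are group means (n = 4). Gpnmb, Gfap, C1qa, Bst2 and Atf3 are lower and Slc6a5, Fdps, Slc6a11, Fa2h and Fgf21 higher in cKO_SOD1 than in cWT_SOD1 without overlap, whereas Chat overlaps between the 2 groups.

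Complement genes, which tag synapses and debris for phagocytes, were lower in 15 of 19 cases and higher in none (median 3.29-fold lower). C1qa, a chain of the recognition molecule C1q, was at 492, 875, 912 and 735 CPM in the 4 cWT_SOD1 libraries and 121, 112, 109 and 117 CPM in the 4 cKO_SOD1 libraries (6.56-fold lower). The central component C3 and C4b were 3.26-fold and 2.26-fold lower, and the receptors C3ar1 and Itgam 4.81-fold and 3.29-fold. All 22 genes of Fc receptors and the phagocyte oxidase were lower, with a median of 3.64-fold. They included the inhibitory receptor Fcgr2b at 84.0, 115, 105 and 62.1 CPM in the 4 cWT_SOD1 libraries and 12.3, 10.8, 13.8 and 10.7 CPM in the 4 cKO_SOD1 libraries. Fcer1g, a signalling chain of activating Fc receptors, was 4.72-fold lower, and the oxidase subunits Cybb and Cyba were 8.02-fold and 5.02-fold lower. Of Toll-like receptor and inflammasome genes, 22 of 23 were lower and none higher, with Tlr2 at 47.9, 57.5, 72.4 and 44.8 CPM in the 4 cWT_SOD1 libraries and 11.3, 10.5, 13.8 and 10.4 CPM in the 4 cKO_SOD1 libraries, and Tlr7, Tlr13 and Tlr4 5.08-fold, 4.59-fold and 3.01-fold lower. Chemokines and cytokines were lower in 21 of 24 cases. The chemokines Ccl6 and Cxcl16 were 3.85-fold and 3.81-fold lower, Ccl3 and Ccl4 2.95-fold and 2.88-fold, and the growth factors Tgfb1 and Csf1 3.12-fold and 1.73-fold. The member that was higher, Cx3cl1, encodes fractalkine, which neurons make, and was at 155, 134, 119 and 159 CPM in the 4 cWT_SOD1 libraries and 249, 238, 220.1 and 217 CPM in the 4 cKO_SOD1 libraries.

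Antigen presentation genes were lower in 18 of 20 cases and higher in none. B2m, the light chain of MHC class I, was at 518, 729, 818 and 648 CPM in the 4 cWT_SOD1 libraries and 193, 192, 213 and 176 CPM in the 4 cKO_SOD1 libraries (3.50-fold lower), and the class II processing protease Ctss was 4.53-fold lower. H2-K1 was 3.29-fold lower, with reads that can be shared between near-identical H2 genes, and the loading factor Tapbp 1.76-fold. Interferon response genes were lower in 31 of 35 cases and higher in none, with a median of 1.83-fold. The groups did not overlap for 21 of 35 genes, against 49.1% of all genes tested. The tetherin gene Bst2 was at 18.3, 25.4, 28.9 and 23.7 CPM in the 4 cWT_SOD1 libraries and 7.55, 5.55, 9.41 and 5.62 CPM in the 4 cKO_SOD1 libraries (log2 fold change −1.78, SE 0.17, adjusted p = 1.71e-07). Gbp2, a guanylate-binding protein, was at 40.7, 23.5, 33.8 and 28.0 CPM in the 4 cWT_SOD1 libraries and 8.72, 10.4, 14.0 and 11.1 CPM in the 4 cKO_SOD1 libraries (2.84-fold lower). Ifit1, which binds viral RNA, was at 19.99, 11.8, 16.5 and 18.3 CPM in the 4 cWT_SOD1 libraries and 7.90, 7.49, 16.5 and 9.25 CPM in the 4 cKO_SOD1 libraries, and cKO_SOD1 replicate 3 lay within the cWT_SOD1 range (adjusted p = 0.0139). Without cKO_SOD1 replicate 2 the adjusted p of Ifit1 was 0.0514, and in females alone it was 0.543, where 17 of the list were lower.

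Interferon-stimulated genes carry the interferon-stimulated response element, which a complex holding Stat2 and Irf9 binds. Its core, GAAA repeated after any 2 bases, was searched on both strands in the 300 bases around gene starts that RefSeq gives (250 before and 50 after, build GRCm38.p6). It was found for 14 of the 25 interferon list genes with a promoter entry (56%), against 3.99% of 27025 genes with an entry. Of these 14 genes, 12 were lower and 2, Ifit3 and Stat2, were not called. Over the whole list 31 of 35 were lower, so genes with the core were lower about as often as the list. The 250 bases before the start are shown for 3 of the genes described above, 5′ to 3′ on the gene's strand, with matches to the core on either strand in capitals.

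Bst2 (chr8:71537473-71537722, minus strand): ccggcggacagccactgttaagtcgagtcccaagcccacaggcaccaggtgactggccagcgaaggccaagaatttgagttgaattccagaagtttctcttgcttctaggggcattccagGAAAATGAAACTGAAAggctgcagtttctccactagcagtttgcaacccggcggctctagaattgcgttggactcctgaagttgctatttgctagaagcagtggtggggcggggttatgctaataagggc
Gbp2 (chr3:142620413-142620662, plus strand): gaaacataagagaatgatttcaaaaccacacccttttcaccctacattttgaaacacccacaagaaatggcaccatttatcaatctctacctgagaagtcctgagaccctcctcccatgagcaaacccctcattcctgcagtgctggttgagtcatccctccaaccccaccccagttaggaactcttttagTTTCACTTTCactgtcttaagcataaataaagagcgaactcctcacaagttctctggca
Ifit1 (chr19:34640639-34640888, plus strand): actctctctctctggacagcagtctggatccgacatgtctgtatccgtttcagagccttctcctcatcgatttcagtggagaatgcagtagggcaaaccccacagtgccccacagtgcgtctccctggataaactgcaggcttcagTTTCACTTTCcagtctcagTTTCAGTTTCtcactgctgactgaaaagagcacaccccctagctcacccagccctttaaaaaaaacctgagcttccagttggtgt

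The match began 59 bases before the start of Gbp2. Ifit1 had matches beginning at 104 and 85 bases before the start, and Bst2 had 2 overlapping ones beginning at 130 and 124. A match describes the letters in this window and not binding.

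All 27 genes of reactive astrocytes were lower in cKO_SOD1, with a median of 3.71-fold. The groups did not overlap for any of them, against 49.1% without overlap over all genes tested. Gfap (chromosome 11, 102749000 to 102758514), the intermediate filament of reactive astrocytes, had the largest difference in CPM of any gene, at 11247, 14151, 13446 and 12492 CPM in the 4 cWT_SOD1 libraries and 4136, 4402, 4699 and 4651 CPM in the 4 cKO_SOD1 libraries (log2 fold change −1.52, SE 0.10, adjusted p = 3.18e-09). The cKO_SOD1 mean of 4472 ± 259 CPM stood above 1429 ± 127 in cWT and 1573 ± 204 in cKO. Vim, its partner filament, was at 973, 1381, 1627 and 1003 CPM in the 4 cWT_SOD1 libraries and 192, 238, 216 and 253 CPM in the 4 cKO_SOD1 libraries, 5.54-fold lower. The acute phase gene Serpina3n was 7.39-fold lower, the iron carrier-binding lipocalin Lcn2 11.2-fold, the protease inhibitor Timp1 8.52-fold, the hyaluronan receptor Cd44 3.83-fold, the oncostatin M receptor Osmr 4.54-fold and the filament gene Nes 2.67-fold.

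Genes of homeostatic astrocytes were called in both directions, with 5 higher and 9 lower of 20. The share higher (25%) was below the 29.1% over all genes tested, and the share lower (45%) was above it. Higher were the GABA transporter Slc6a11 (chromosome 6, 114081000 to 114199880), at 309, 265, 245 and 315 CPM in the 4 cWT_SOD1 libraries and 611, 622, 608 and 655 CPM in the 4 cKO_SOD1 libraries (log2 fold change 1.14, SE 0.071, adjusted p = 2.82e-09), and the D-serine and alanine exchanger Slc7a10, at 46.3, 43.4, 35.9 and 40.1 CPM in the 4 cWT_SOD1 libraries and 78.7, 97.6, 86.1 and 94.8 CPM in the 4 cKO_SOD1 libraries. The means in cKO_SOD1, 624 and 89.3 CPM, lay below those in cWT, 729 and 116. Lower were the water channel Aqp4 (2.06-fold), Aldh1l1 (1.98-fold), the connexin Gja1 (1.33-fold) and the glutamate transporters Slc1a3 (1.52-fold) and Slc1a2 (1.17-fold).

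Myelin and oligodendrocyte genes were higher in 11 and lower in 4 of 22 cases. Fa2h, an enzyme of myelin galactolipid synthesis, was at 93.3, 93.0, 99.97 and 110.4 CPM in the 4 cWT_SOD1 libraries and 159.9, 162, 161 and 168 CPM in the 4 cKO_SOD1 libraries (1.64-fold higher, no overlap), and Ugt8a, of the same pathway, was 1.90-fold higher. Mbp, at 12629.5 ± 1089 and 14474 ± 987 CPM, differed 1.15-fold with overlap (adjusted p = 0.0218, or 0.0624 without cWT_SOD1 replicate 2 and 0.0804 without cKO_SOD1 replicate 4), and Mag (log2 fold change 0.087, SE 0.08, adjusted p = 0.367) was not called. The lactate transporter Slc16a1 and the iron carrier Trf were 1.75-fold and 1.47-fold lower. Of 15 genes of oligodendrocyte precursors 8 were lower, among them the proteoglycan Cspg4 (1.94-fold) and the receptor Pdgfra (1.503-fold), and 1, the proteoglycan Bcan, was higher (1.34-fold).

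Neuronal genes were higher in cKO_SOD1. Of 31 pan-neuronal and synaptic genes 30 were higher and none lower, with a median of 1.56-fold. The glycine receptor subunit Glra1 was at 65.9, 45.2, 36.3 and 58.9 CPM in the 4 cWT_SOD1 libraries and 145, 140.2, 137 and 139 CPM in the 4 cKO_SOD1 libraries (log2 fold change 1.45, SE 0.12, adjusted p = 6.75e-08), and its cKO_SOD1 mean of 141 CPM compared with 172 in cWT. Rbfox3 (NeuN), the synaptic vesicle protein Syn1, the calcium sensor Syt2 and the fast potassium channel Kcnc1 were 1.64-fold, 1.73-fold, 2.67-fold and 1.95-fold higher. Of 32 spinal interneuron genes 19 were higher and 1 lower. Slc6a5, the glycine transporter of inhibitory interneurons, was at 113, 63.3, 49.2 and 89.3 CPM in the 4 cWT_SOD1 libraries and 227, 249, 217 and 229 CPM in the 4 cKO_SOD1 libraries (2.94-fold higher), beside 246 ± 11.0 CPM in cWT. The vesicular transporters Slc17a6 and Slc32a1, of glutamate and of GABA with glycine, were 2.17-fold and 2.10-fold higher, and the muscarinic receptor Chrm2 2.46-fold. En1, a marker of V1 interneurons, was at 1.29, 0.559, 0.736 and 0.796 CPM in the 4 cWT_SOD1 libraries and 3.45, 3.25, 2.24 and 2.24 CPM in the 4 cKO_SOD1 libraries. In none of these interneuron genes did the groups overlap. The rules for naming genes favour a small p or require no overlap, so this was partly set by the choice. Over the whole list the groups did not overlap for 18 of 32 genes, against 49.1% of all genes tested. The neuropeptide Gal was the member that was lower. Its call rested on cWT_SOD1 replicate 3 at 14.6 CPM, and leaving that library out gave a log2 fold change of −0.23 (adjusted p = 0.127). The adjusted p was 0.0653 without cKO_SOD1 replicate 3.

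Motor neuron genes were mixed. Of 24 tested, 11 were higher, 4 lower and 9 not called, with a median log2 fold change of 0.22. The summed level of the list did not overlap, at 1735 to 2786 CPM in cWT_SOD1 and 3510 to 4078 CPM in cKO_SOD1. Chat, which makes acetylcholine and defines cholinergic neurons, was at 18.5, 12.02, 12.97 and 15.5 CPM in the 4 cWT_SOD1 libraries and 15.1, 12.8, 12.2 and 15.7 CPM in the 4 cKO_SOD1 libraries. The ranges overlapped and the difference did not pass the test (log2 fold change −0.077, SE 0.17, adjusted p = 0.713), and both groups lay below cWT at 46.2 ± 10.8 and cKO at 32.8 ± 2.52 CPM. The same held for the vesicular acetylcholine transporter Slc18a3, at 24.9, 21.1, 22.1 and 24.8 CPM in the 4 cWT_SOD1 libraries and 29.4, 26.1, 19.8 and 29.9 CPM in the 4 cKO_SOD1 libraries (log2 fold change 0.18, SE 0.12, adjusted p = 0.220), although it passed as higher without cKO_SOD1 replicate 3 (log2 fold change 0.29, adjusted p = 0.0300). The homeobox genes Isl1 and Mnx1 were not called (log2 fold change −0.10, SE 0.22, adjusted p = 0.717, and log2 fold change 0.13, SE 0.25, adjusted p = 0.702). Chodl (chromosome 16, 78931200 to 78951973), expressed by the motor neurons of fast muscle units, was lower in cKO_SOD1, at 4.49, 4.58, 5.83 and 7.63 CPM in the 4 cWT_SOD1 libraries and 4.04, 3.82, 2.52 and 3.68 CPM in the 4 cKO_SOD1 libraries (log2 fold change −0.68, SE 0.18, adjusted p = 0.00302). In males alone its call was lost (log2 fold change −0.39, adjusted p = 0.200). Its groups did not overlap, and both stood far below 86.0 ± 9.02 CPM in cWT. The filament gene Prph was at 52.97, 45.4, 58.0 and 61.7 CPM in the 4 cWT_SOD1 libraries and 48.9, 35.0, 37.5 and 51.4 CPM in the 4 cKO_SOD1 libraries (log2 fold change −0.34, SE 0.12, adjusted p = 0.0259), with overlap, and its call was lost without any 1 of cWT_SOD1 replicates 3 and 4 and cKO_SOD1 replicates 2 and 3 (adjusted p from 0.0663 to 0.0976). Anxa4 and Stk32a were 2.70-fold and 2.46-fold lower without overlap. Genes of this list that were higher include ones that many other neurons use. The neurofilaments Nefl, Nefm and Nefh were 2.02-fold, 1.79-fold and 1.90-fold higher, with Nefl at 984, 578, 538 and 862 CPM in the 4 cWT_SOD1 libraries and 1539.5, 1506, 1368 and 1567 CPM in the 4 cKO_SOD1 libraries. The choline transporter Slc5a7 was 1.72-fold higher, acetylcholinesterase Ache 1.83-fold, the nuclear receptor Esrrg 2.29-fold and the LIM homeobox gene Lhx4 4.09-fold. Mmp9, a metalloproteinase of fast motor neurons, was at 4.31, 4.14, 3.63 and 4.51 CPM in the 4 cWT_SOD1 libraries and 6.91, 5.87, 5.54 and 6.91 CPM in the 4 cKO_SOD1 libraries (log2 fold change 0.61, SE 0.10, adjusted p = 6.30e-05).

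Cholesterol synthesis genes were higher in 22 of 23 cases and lower in none, with a median of 1.73-fold. Fdps, which makes farnesyl diphosphate, was at 10.6, 7.38, 9.74 and 10.01 CPM in the 4 cWT_SOD1 libraries and 19.6, 17.9, 20.3 and 28.3 CPM in the 4 cKO_SOD1 libraries (log2 fold change 1.19, SE 0.14, adjusted p = 1.92e-06). Every cKO_SOD1 library was above every cWT_SOD1 library, and cWT was at 28.8 ± 4.11 CPM. The enzymes Idi1, Lss and Sc5d were 2.28-fold, 1.85-fold and 1.69-fold higher, and the transcription factor Srebf2, which drives the pathway, 1.67-fold. The sterol element core TCACNCCAC was in the RefSeq promoter windows of 1 of 16 list genes with an entry (6.25%) and of 1.44% of all genes. Lipid handling genes went the other way, with 16 of 24 lower and 1 higher. The cholesterol exporter Abca1 was at 384, 587, 596 and 402 CPM in the 4 cWT_SOD1 libraries and 119, 120.3, 119 and 94.8 CPM in the 4 cKO_SOD1 libraries (4.35-fold lower), the lipid droplet coat gene Plin2 3.34-fold lower and lipoprotein lipase, Lpl, 4.55-fold lower. The fatty acid ligase Acsl1 was 1.31-fold higher.

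Lysosomal genes were lower in 33 and higher in 3 of 41 cases, with a median of 2.26-fold lower. The cathepsin genes Ctsd and Ctsb, aspartic and cysteine proteases of the lysosome, were among the largest differences in CPM. Ctsd was at 3163, 6131, 5676 and 5100.0 CPM in the 4 cWT_SOD1 libraries and 1064, 1043, 981 and 961 CPM in the 4 cKO_SOD1 libraries (4.96-fold lower), and Ctsb fell from 3664 ± 744 to 1218 ± 26.1 CPM. Ctsl and the progranulin gene Grn were 3.67-fold and 4.42-fold lower, and the membrane proteins Lamp2 and Lamp1 2.13-fold and 1.42-fold. Higher were the pump subunit Atp6v1b2 (1.44-fold), acid glucosidase Gaa (1.18-fold) and the calcium channel Mcoln1 (1.16-fold). The palindromic 10-base CLEAR motif, to which the lysosomal regulator Tfeb binds, was in 0 of 33 RefSeq promoter windows of list genes and in 0.370% of all genes, which says only that it is not in these windows. Tfeb itself was not called (log2 fold change −0.17, SE 0.077, adjusted p = 0.0746), except without cWT_SOD1 replicate 4 (adjusted p = 0.0395).

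Autophagy genes other than Atg7 moved by smaller amounts. Of 34 tested, 17 were higher and 8 lower, with a median log2 fold change of 0.15. Atg9a, which supplies membrane, was at 94.2, 86.5, 88.0 and 92.9 CPM in the 4 cWT_SOD1 libraries and 133, 134, 124 and 134 CPM in the 4 cKO_SOD1 libraries (log2 fold change 0.54, SE 0.044, adjusted p = 4.74e-08), without overlap. The initiating kinase Ulk1 and the protease Atg4d were 1.35-fold and 1.45-fold higher, and Gabarap, one of the proteins that Atg7 activates, was 1.48-fold lower at 176, 206, 214 and 202 CPM in the 4 cWT_SOD1 libraries and 133, 131, 136 and 139.7 CPM in the 4 cKO_SOD1 libraries. Map1lc3b, which encodes LC3B, did not pass the test (log2 fold change −0.0044, SE 0.048, adjusted p = 0.946). Of 15 autophagy receptor genes 4 were higher (26.7%) and 1 lower (6.67%), both shares below the background of 29.1%. Sqstm1, the receptor p62 that accumulates as protein when autophagy stops, was at 517, 567, 590.5 and 559 CPM in the 4 cWT_SOD1 libraries and 516, 519, 501 and 539 CPM in the 4 cKO_SOD1 libraries (log2 fold change −0.11, SE 0.051, adjusted p = 0.0862). It passed as lower without cWT_SOD1 replicate 1 (log2 fold change −0.14, adjusted p = 0.0129) and with DESeq2 (−0.11, adjusted p = 0.0263). The ferritin receptor Ncoa4 was 1.65-fold lower, and Ubqln2 and Wdfy3 were 1.45-fold and 1.40-fold higher. Of 25 genes linked to amyotrophic lateral sclerosis 10 were higher and 2 lower. The synaptic priming gene Unc13a, the axonal motor Kif5a and the tubulin Tuba4a were 2.04-fold, 1.95-fold and 1.95-fold higher, the actin regulator Pfn1 1.48-fold lower, and Tardbp, Tbk1 and Optn were not called (log2 fold changes −0.064, 0.081 and −0.028), although Tbk1 passed without cWT_SOD1 replicate 1 (adjusted p = 0.0478).

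**Figure D4:**
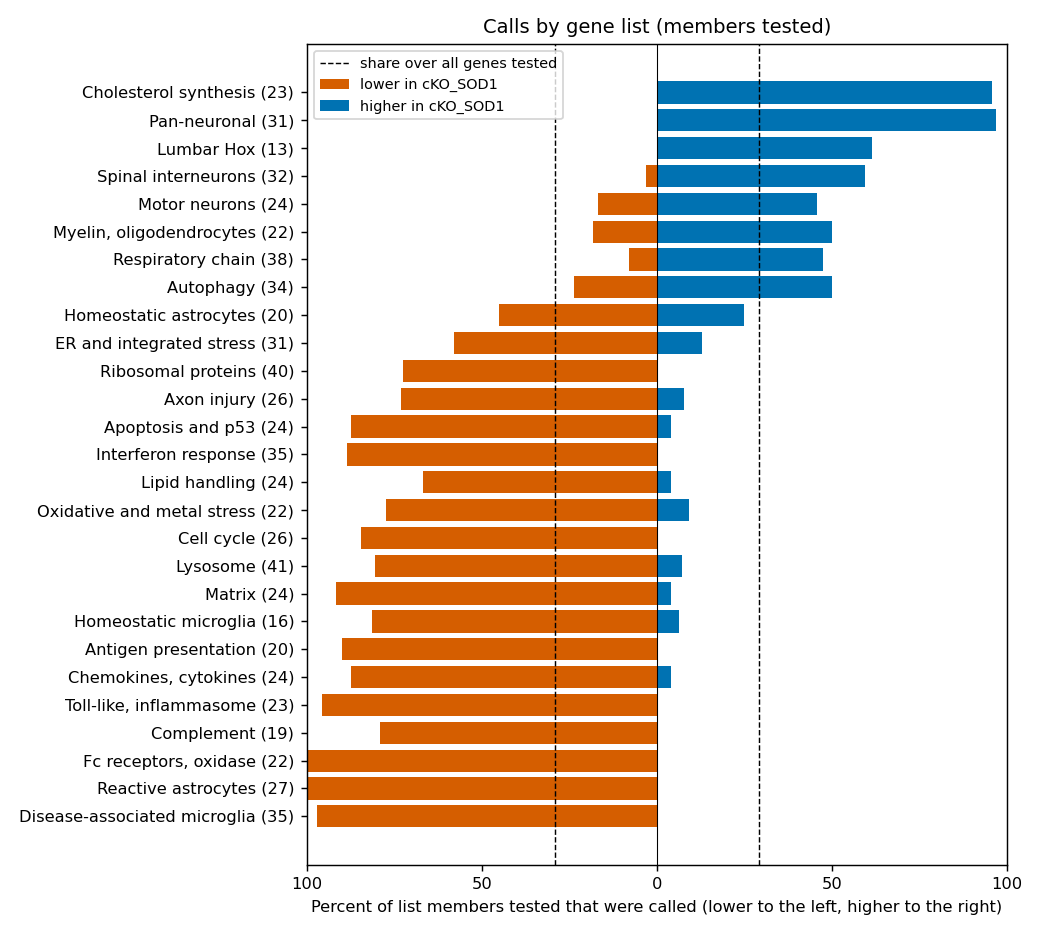
Bars give the percent of tested members called lower (left) and higher (right) in cKO_SOD1 for 27 lists, ordered by median log2 fold change, with the number tested in brackets. Dashed lines mark 29.1%, the share over all genes tested in each direction, and all members of the reactive astrocyte list and of the Fc receptor and oxidase list were lower.

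Stress response genes were lower for the most part, with single members going the other way. Of 31 genes of the unfolded protein and integrated stress responses 18 were lower and 4 higher. Nupr1, a stress-induced chromatin protein, was at 37.6, 103, 139 and 63.6 CPM in the 4 cWT_SOD1 libraries and 8.37, 8.43, 7.36 and 9.50 CPM in the 4 cKO_SOD1 libraries (10.2-fold lower). The circulating stress factor Gdf15 was 8.72-fold lower, the pseudokinase Trib3 5.14-fold, Ddit3 (CHOP) 1.94-fold and the mannosidase-like Edem1 1.81-fold. Asparagine synthetase, Asns, was higher, at 83.0, 62.2, 66.3 and 72.3 CPM in the 4 cWT_SOD1 libraries and 105, 102, 99.1 and 106 CPM in the 4 cKO_SOD1 libraries (log2 fold change 0.54, SE 0.065, adjusted p = 2.14e-06), as was Fgf21. Both are known targets of Atf4, as are Trib3 and Ddit3, which were lower.

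Atf4 with a C/EBP partner binds the amino acid response element, whose core TGATGNAA was searched as above, a search added after the values were seen. It was found for 8 of 30 genes of this list with a RefSeq entry (26.7%), against 4.51% of all genes. Among these 8 genes Nupr1 and Trib3 were lower, Fgf21, Asns, Herpud1 and Vldlr higher, and Chac1 and Slc7a11 not called. The calls of Herpud1 (log2 fold change 0.16, SE 0.063, adjusted p = 0.0385) and Vldlr (log2 fold change 0.32, SE 0.11, adjusted p = 0.0139) were lost without cWT_SOD1 replicate 2 (adjusted p = 0.138 and 0.0659) and without cKO_SOD1 replicate 2 for Herpud1 and 3 for Vldlr (adjusted p = 0.0760 and 0.0594). Herpud1 also lost its call without any 1 of cWT_SOD1 replicates 1 and 3 and cKO_SOD1 replicates 1 and 4 (adjusted p from 0.0742 to 0.111). Slc7a11 was called without cWT_SOD1 replicate 1 (adjusted p = 0.0224), without cKO_SOD1 replicate 2 (0.0252) and without cWT replicate 2 (0.0427). The windows of a strongly lower, a strongly higher and a moderately higher gene are shown, 250 bases before the start, with the core in capitals.

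Nupr1 (chr7:126625471-126625720, minus strand): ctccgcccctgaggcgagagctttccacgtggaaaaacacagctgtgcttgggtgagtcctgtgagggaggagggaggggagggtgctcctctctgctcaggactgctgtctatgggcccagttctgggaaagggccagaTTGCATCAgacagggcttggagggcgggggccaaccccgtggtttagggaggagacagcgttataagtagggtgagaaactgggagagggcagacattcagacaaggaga
Fgf21 (chr7:45615491-45615740, minus strand): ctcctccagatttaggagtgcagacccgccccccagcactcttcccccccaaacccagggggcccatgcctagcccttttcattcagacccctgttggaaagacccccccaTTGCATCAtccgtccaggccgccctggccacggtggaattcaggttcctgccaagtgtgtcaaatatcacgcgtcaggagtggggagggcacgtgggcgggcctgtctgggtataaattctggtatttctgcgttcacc
Asns (chr6:7693210-7693459, minus strand): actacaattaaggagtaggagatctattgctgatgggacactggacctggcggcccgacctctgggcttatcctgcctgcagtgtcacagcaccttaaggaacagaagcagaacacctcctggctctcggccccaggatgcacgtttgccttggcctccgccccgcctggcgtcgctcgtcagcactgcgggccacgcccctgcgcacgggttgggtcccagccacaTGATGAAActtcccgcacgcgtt

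The match began 110 bases before the start of Nupr1, 139 before that of Fgf21 and 23 before that of Asns. The 3 genes were chosen to hold the core and to differ in direction, so nothing on the role of the core follows from them.

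Axon injury genes, which motor and sensory neurons raise when their axons are cut, were lower in 19 and higher in 2 of 26 cases. The transcription factor Atf3 was at 34.5, 50.03, 56.2 and 51.1 CPM in the 4 cWT_SOD1 libraries and 10.4, 9.32, 7.87 and 8.35 CPM in the 4 cKO_SOD1 libraries (log2 fold change −2.42, SE 0.14, adjusted p = 2.19e-09), without overlap, and its cKO_SOD1 level was above 1.17 ± 0.342 CPM in cWT. Sprr1a, Jun, Gadd45a and Klf6 were 2.81-fold, 1.72-fold, 2.59-fold and 1.93-fold lower, and the neuropeptide Vip and the receptor Cckbr 2.17-fold and 1.62-fold higher. Activity-dependent genes were called at about the background share, with 5 higher and 6 lower of 19. Arc, a synaptic immediate early gene, was 1.97-fold higher, and Junb, Fosl2 and Btg2 were 2.68-fold, 2.32-fold and 2.32-fold lower. Heat shock genes were called in both directions (7 higher, 7 lower of 18). The small heat shock genes Hspb1, Hspb6 and Hspb8 were 8.42-fold, 2.39-fold and 1.85-fold lower, Hspb1 at 75.9, 168, 259 and 131 CPM in the 4 cWT_SOD1 libraries and 20.7, 21.2, 14.3 and 19.2 CPM in the 4 cKO_SOD1 libraries, and the neuronal Hspa4l 1.88-fold higher.

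Oxidative and metal stress genes were lower in 17 and higher in 2 of 22 cases. Haem oxygenase, Hmox1, was at 52.5, 75.5, 79.0 and 68.2 CPM in the 4 cWT_SOD1 libraries and 9.72, 10.7, 10.1 and 12.03 CPM in the 4 cKO_SOD1 libraries (6.47-fold lower), and the metallothioneins Mt1 and Mt2, which bind zinc and copper, were 4.03-fold and 4.04-fold lower. The peroxiredoxin Prdx6, ferritin light chain Ftl1 and the regulator Nfe2l2 were 3.72-fold, 2.86-fold and 2.04-fold lower. Fth1, the ferritin heavy chain, was at 4466, 7134, 7567 and 6352 CPM in the 4 cWT_SOD1 libraries and 4533, 4527, 4617 and 4105 CPM in the 4 cKO_SOD1 libraries (1.44-fold lower), with cWT_SOD1 replicate 1 in the cKO_SOD1 range. Mitochondrial Sod2 was 1.52-fold higher. Apoptosis and p53 genes were lower in 21 of 24 cases, with the death receptor Eda2r 3.74-fold, Casp8 2.52-fold, Mcl1 2.05-fold and Ccng1 2.39-fold lower. The cell cycle inhibitor Cdkn1a was at 50.01, 285, 258 and 181 CPM in the 4 cWT_SOD1 libraries and 66.1, 59.9, 30.5 and 29.3 CPM in the 4 cKO_SOD1 libraries, with cWT_SOD1 replicate 1 in the cKO_SOD1 range (adjusted p = 9.74e-04). Zmat3 was 1.41-fold higher.

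Cell cycle genes were lower in 22 of 26 cases and higher in none. Ccnd1 was at 189.7, 205, 187 and 164 CPM in the 4 cWT_SOD1 libraries and 72.7, 75.9, 79.7 and 77.0 CPM in the 4 cKO_SOD1 libraries (2.44-fold lower), the topoisomerase Top2a 2.75-fold lower and the proliferation marker Mki67 2.57-fold lower, from 16.3 ± 0.639 to 6.32 ± 1.39 CPM, beside 1.49 ± 0.421 in cWT. Cytosolic ribosomal protein genes were lower in 29 of 40 cases by small amounts (median 1.40-fold), with Rps9 at 174, 227, 237 and 197 CPM in the 4 cWT_SOD1 libraries and 132, 127, 129 and 138 CPM in the 4 cKO_SOD1 libraries. Their reads can be shared with processed pseudogenes. Respiratory chain genes were higher in 18 and lower in 3 of 38 cases, with Cox5a and Atp5b 1.33-fold and 1.28-fold higher. Proteasome genes were not called above the background share, with 4 higher and 8 lower of 29. Without cKO_SOD1 replicate 1 the lower count was 5. The activator subunits Psme1 and Psme2, which interferon induces, were 1.497-fold and 1.46-fold lower.

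Matrix and protease genes were lower in 22 of 24 cases. The galectin Lgals1 was at 79.4, 102, 108 and 90.3 CPM in the 4 cWT_SOD1 libraries and 29.6, 30.9, 28.9 and 35.8 CPM in the 4 cKO_SOD1 libraries, 3.03-fold lower, and its cKO_SOD1 mean of 31.3 CPM was near that in cKO, 31.5. The protease genes Plau and Adamts1 were 4.31-fold and 2.66-fold lower, and Adamts4 was 1.44-fold higher. Trophic factor genes were lower in 13 and higher in 5 of 24 cases. Igf1, a survival factor for motor neurons that microglia make, was at 17.6, 49.4, 43.5 and 58.6 CPM in the 4 cWT_SOD1 libraries and 16.98, 14.2, 14.6 and 14.7 CPM in the 4 cKO_SOD1 libraries, 2.80-fold lower. Hgf and Igfbp5 were 5.78-fold and 2.77-fold lower, and Bdnf and Vegfa 1.51-fold and 1.81-fold higher. The Hox genes that mark lumbar position were higher in 8 of 13 cases and lower in none, with Hoxc10 at 61.0, 39.4, 39.0 and 50.9 CPM in the 4 cWT_SOD1 libraries and 85.0, 78.3, 78.1 and 76.1 CPM in the 4 cKO_SOD1 libraries and Hoxa10 1.42-fold higher.

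Markers of other cells that the dissected tissue can hold were read against the same background of 29.1% in each direction. Endothelial genes were called in 3 higher and 2 lower of 18 cases, below the background in both directions, with Cldn5 not called (log2 fold change 0.24, SE 0.16, adjusted p = 0.219), except without cKO_SOD1 replicate 2 (adjusted p = 0.0371). The number of endothelial genes higher was 6 without cWT_SOD1 replicate 1, 5 without cKO_SOD1 replicate 2 and 1 without cWT_SOD1 replicate 3. Of 13 Schwann cell genes 7 were lower, and their summed level was 451 to 577 CPM in cWT_SOD1 and 323 to 498 CPM in cKO_SOD1. Of 17 meningeal and fibroblast genes 9 were lower and 1 higher (summed 802 to 1461 against 696 to 953 CPM), with Igfbp2 6.94-fold lower. Markers of sensory ganglia were higher in 4 and lower in 1 of 7 cases, at summed levels of 29.0 to 34.0 and 26.9 to 29.7 CPM. Without cWT_SOD1 replicate 4 the higher count was 2. Peripheral macrophage genes were lower in 10 of 13 cases (summed 217 to 397 against 106 to 151 CPM), with Ms4a7 at 5.17, 12.1, 11.7 and 9.08 CPM in the 4 cWT_SOD1 libraries and 0.703, 0.943, 0.978 and 0.398 CPM in the 4 cKO_SOD1 libraries. Of the T cell genes 4 of 6 were lower, at summed levels of 6.89 to 8.38 and 2.83 to 4.43 CPM, and the T cell receptor genes Cd3e, Cd3d and Cd3g did not pass the filter on low counts. Of 3 B cell genes 1 was lower, Cd22, which microglia also express, and Cd79a and Ms4a1 did not pass the filter. Without cWT_SOD1 replicate 1 or cKO_SOD1 replicate 4 the count was 2. Neutrophil genes, under the background too, had 1 of 5 lower, and neither the 2 genes of red blood cells nor S100a8 and S100a9 were called, although 1 of the red blood cell genes was lower without cWT replicate 2, cWT_SOD1 replicate 2 or cKO_SOD1 replicate 3. The fitted direction of S100a8 and S100a9 (−0.66 and −0.75) turned without cWT_SOD1 replicate 3 (0.22 and 0.040). The part of these cells in the results above was not tested.

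The same genotype difference was measured without the transgene, in 8 other libraries. There, cKO and cWT differed in 4 of 15426 genes (0.0259%), and 543 genes (3.52%) had an unadjusted p under 0.05 in edgeR's test. DESeq2 called 17, and the count was 2 without cKO replicate 2 and 9 without cWT_SOD1 replicate 1. The 4 genes were Fgf21, Mmp9, Chodl and Mrvi1, and all 4 were called with the transgene too. Fgf21 was at 0.102, 0.0571, 0.111 and 0.0554 CPM in the 4 cWT libraries and 5.998, 3.82, 4.32 and 5.75 CPM in the 4 cKO libraries (log2 fold change 5.81, SE 0.32, adjusted p = 2.52e-08). It was thus higher in both comparisons, by less on the log2 scale with the transgene (interaction −3.22, SE 0.51, adjusted p = 8.89e-05). The cWT levels were near the floor, so the sizes of the change without the transgene and of the interaction rest on few counts. Chodl, at 75.5, 96.9, 88.4 and 83.0 CPM in cWT and 52.0, 45.7, 55.3 and 51.5 CPM in cKO (log2 fold change −0.75, SE 0.11, adjusted p = 0.0113), was lower in both, and the difference between the 2 effects did not pass the test (interaction 0.067, SE 0.21, adjusted p = 0.822). Mmp9 changed direction, from 21.01 ± 0.545 CPM in cWT to 11.9 ± 0.987 in cKO without the transgene (log2 fold change −0.81, SE 0.084, adjusted p = 1.77e-04) and higher in cKO_SOD1 with it (interaction 1.42, SE 0.13, adjusted p = 1.04e-06). Mrvi1, at −0.67 without and −0.25 with the transgene, had an adjusted p of 0.0486 in the latter, which rose to between 0.0541 and 0.126 in 11 of the 16 fits that left out 1 library, those without cWT_SOD1 replicates 1, 2 and 4 and cKO_SOD1 replicates 1 and 3 among them.

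The interaction, which is the genotype difference with the transgene minus that without it, was called in 6949 genes (45.0%), 3582 positive (23.2%) and 3367 negative (21.8%). The smallest p among positive interactions belonged to Slc6a11 (interaction 1.16, SE 0.10, adjusted p = 4.96e-07), Slc7a10, Mtus2, Kcnj3, Mmp9 and Parm1, and among negative ones to Dhrs1 (interaction −1.92, SE 0.10, adjusted p = 4.60e-09), Plscr2, Add3, Cd34, Nek6 and Casp12. Over the disease-associated microglia list the median log2 fold change was 0.13 without the transgene and −2.18 with it, over reactive astrocytes 0.16 and −1.89, over pan-neuronal genes −0.0041 and 0.64, and over motor neuron genes −0.25 and 0.22. Interactions were called in 32 of 35, 27 of 27, 29 of 31 and 15 of 24 members of these lists.

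**Figure D5:**
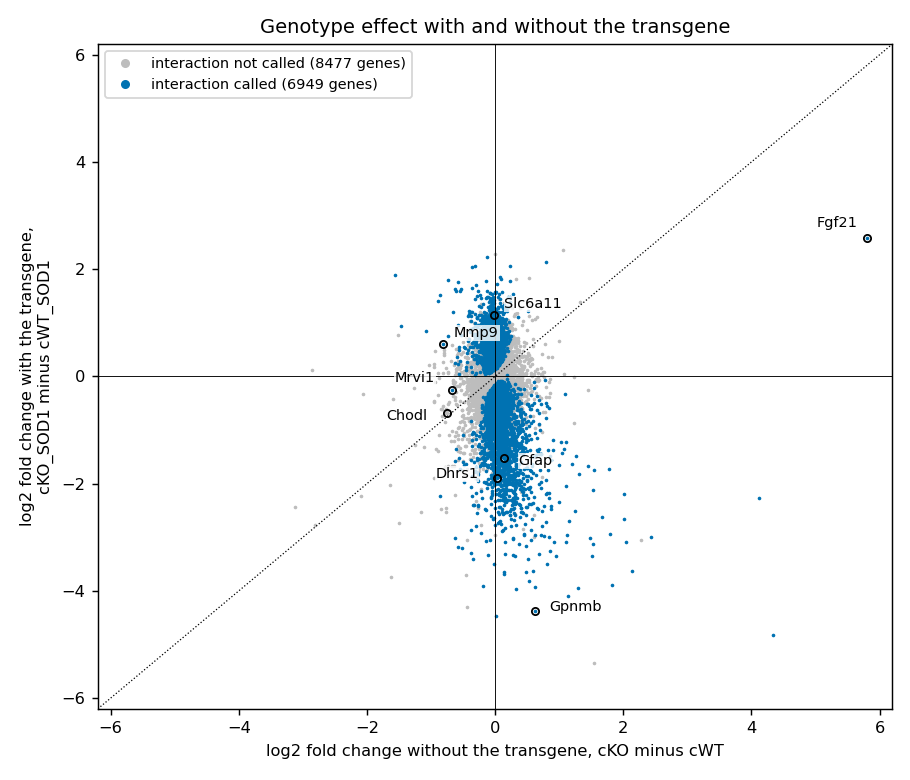
Each point is a gene, by log2 fold change of cKO against cWT without the transgene (horizontal) and of cKO_SOD1 against cWT_SOD1 (vertical), with the dotted line at equal values. Most called interactions spread along the vertical axis, and Fgf21 stands apart at 5.81 and 2.59, of which 5.81 rests on few counts in cWT.

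The comparison was repeated within each sex, with 2 animals a group. Of the 8984 genes called, 8961 had the same direction in males and in females, and 4694 were called in both single-sex fits. The animals of each sex are among those that gave the 8984 calls. Agreement in direction was therefore largely set by the selection and is not an independent check. Of the genes named above, Adamts4, Cdkn1a, Chodl, Fth1, Gal, Gja1, Herpud1, Igf1, Mbp, Mrvi1, Prph, Psme2, Slc1a2, Slc2a5, Slc5a7, Vip and Vldlr lost their calls in males alone (adjusted p from 0.0519 to 0.822), and Gaa, Gal, Herpud1, Ifit1, Mbp, Mcoln1, Mrvi1, P2ry12, Prph and Slc2a5 in females alone (0.0550 to 0.543). Leaving out each of the 8 libraries in turn, 7436 of the 8984 were called every time. The number more than 2-fold higher was 433 without cWT_SOD1 replicate 1 and 165 without replicate 3, in place of 278, while 1191 more than 2-fold lower moved by less than 1.5 times. P-values of the model fitted to all libraries rest on the spread between animals, pooled over the groups for each gene. The median SD of log2 CPM was unequal, at 0.152 in cWT_SOD1, 0.0984 in cKO_SOD1, 0.109 in cWT and 0.093 in cKO. These p-values therefore do not use each group's own spread. The order of dissection, extraction and sequencing is not given in the sources used here.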

How the data were processed

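RNA-seq was done on lumbar cord of 16 mice. TruSeq libraries were made from poly-A RNA after Trizol and RNeasy extraction, per the labels' protocols. The submitters' processing notes name TopHat2 2.0.4, Cufflinks 2.0.2, bcl2fastq 1.8.4 and mm9, with no role for each. How reads were counted, and whether by strand, is not given in the sources used here. Near-identical, overlapping and antisense genes may therefore share reads. The authors deposited a table of raw counts for 23284 symbols, and FPKM values (scaled for length and depth), which served as an alternative and, through their loci, for positions in mm9, written from 1.

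A single model with 4 group coefficients was fitted to the counts of the 16 libraries (edgeR 4.0.16 in R 4.3.3, TMM normalisation, filterByExpr, quasi-likelihood F-test), with Benjamini-Hochberg adjustment of p-values over 15426 genes. The SE was taken as the size of the log2 fold change over the square root of F. CPM uses TMM library sizes. List levels and principal components use log2 CPM with a prior count of 2. Of 1051 entries in 46 gene lists, 1047 were matched, 14 through an older symbol. Members and lists were chosen with earlier results of these data known, so lists are described by counts and medians without a test.

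Named genes were Atg7 and Sod1, and of the called genes averaging 1 CPM or more without overlap of the groups, the 12 with the highest and the 12 with the lowest fold change. They were also the 8 called genes of smallest p in each direction, the 8 with the largest difference in CPM, and the 6 of smallest interaction p in each direction. Each list gave its 4 members of smallest p and up to 3 called against its majority, up to 6 genes could be called in both genotype comparisons, and list members known for their role could be named whatever their values. Sex was read from Xist and Y-linked genes, which are not otherwise reported. Some genes that the rule names are not reported here.

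On simulated counts with 50 genes changed at each size, the procedure run on 15306 genes found 46% of those changed 1.3-fold, 80% of those changed 1.5-fold, 84% of those changed 2-fold and 98% of those changed 4-fold, with 10 false among 164 calls. The data held many more calls than this simulation had changed genes, and the simulation gave all groups the same spread. Its shares therefore need not hold for the data. No 2 libraries of a group were alike within counting noise (mean chi-square per gene 2.88 to 40.8). The 95% counting interval of a ratio covers counting error only, since the labels name no molecular tags. Alternatives were RLE and upper-quartile scaling, no filter, DESeq2 1.42.0, limma-voom 3.58.1 with group weights, the 8 transgenic libraries alone, a replicate block, sex as covariate, each sex alone, limma on log2(FPKM + 0.1) and log2(FPKM + 1), each library left out, and a test against 1.2-fold.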

Additional observations from a re-analysis of the deposited data

Results flagged for a closer look

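Among the genes named above, 468 groups of 4 transgenic libraries were checked for a library standing apart (its gap to the nearest of the others over the whole range above Dixon's 95% critical value), and 25 did so (5.34%). Chance gives about 1 in 20. In cWT_SOD1, replicate 1 stood above the others for Dmrt3 (0.984 CPM), Frem3 (1.66), Heyl (3.20), Mnx1 (1.17) and Slc5a7 (79.0). It stood below them for Edem1 (76.2), Map1lc3b (191.6) and Stk32a (72.3). Replicate 2 was low for Stat2 (26.6), and replicate 3 was high for Gal (14.6) and low for Isl1 (1.19).

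In cKO_SOD1, replicate 1 was high for Mtus2 (72.7 CPM) and Serpina3i (1.29). Replicate 2 was low for Atg7 (20.4) and high for Apoc2 (0.471), Cxcl16 (8.54) and Cybb (11.0). Replicate 3 was high for Aqp4 (1434) and Ifit3 (38.0), and low for Anxa4 (14.6), Atg9a (124.0), Rbfox3 (132) and Syt2 (367). Replicate 4 was low for Abca1 (94.8) and Plscr2 (9.95).

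The effect of Atg7 deletion differed between mice with and without the transgene by the interaction term of edgeR's quasi-likelihood test for 6949 genes. Among those named, the interaction (the genotype difference with the transgene minus that without it, in log2) was positive, at 1.16 for Slc6a11, 1.23 for Slc7a10, 0.76 for Mtus2, 0.97 for Kcnj3, 1.42 for Mmp9, 1.01 for Parm1 and 0.42 for Mrvi1. Mmp9 turned from lower without the transgene to higher with it, and Mrvi1 was lower in both, by less with it. For other genes the interaction was negative, at −1.92 for Dhrs1, −1.77 for Plscr2, −0.99 for Add3, −2.42 for Cd34 and −1.25 for Nek6. Casp12 was at −2.45 and Fgf21 at −3.22, the value for Fgf21 resting on few counts in cWT.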

How the results depend on the processing

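Of the 8984 called genes, 7436 were also called in each of the 8 fits that left out 1 transgenic library, 8687 by DESeq2, 8132 by limma-voom and 8151 with the 8 transgenic libraries alone. Replicate numbers did not pair the libraries (correlations of deviations from −0.09 to 0.17), and the fit with replicate number as a block called 9018. Leaving out 1 library gave 165 to 433 genes over 2-fold higher, and 2 to 9 called for cKO against cWT. It gave 1 to 6 endothelial genes higher, with lowest and highest counts as in the text for sensory ganglion, blood, B cell and proteasome genes. Against 1.2-fold, 5098 genes passed (2340 higher, 2758 lower). On log2(FPKM + 1), 97 were over 2-fold higher and 690 over 2-fold lower. For cKO against cWT, DESeq2 called 17, voom 10, males alone 1 and females alone 2. Males alone gave 2915 lower genes and 2863 by interaction (1514 higher, 1349 lower). Females alone gave 4616 by interaction (2269 higher).

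Males alone also gave 7 myelin genes higher, 0 endothelial, 1 sensory ganglion, 10 autophagy and 6 ALS-linked. Lower in males alone were 3 ependymal, 3 Schwann cell, 4 meningeal, 1 blood, 5 macrophage, 11 stress response and 4 proteasome genes. Females alone gave 17 interferon genes lower, 10 autophagy genes higher and 2 proteasome genes lower. Voom gave 1 endothelial gene higher and 5 proteasome genes lower. The block gave 1 blood and 2 B cell genes lower, and the sex covariate 1 blood gene lower. Both filtered FPKM fits gave 0 T cell genes lower, a count that takes in only members with a mean FPKM of at least 0.5. The causes were not tested. Of 234 genes named, 214 were called, 22 lost the call in some alternative and no called change turned its sign. The sign turned in 28 refits in which the gene was called neither there nor in the values reported. In simulation with 4 animals a group, 46% of 1.3-fold changes were recovered. The simulation held far fewer changed genes than the data held calls, so this share need not hold for the data.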
